A study of Sus scrofa with 24 samples.

Results

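MYOC, PI15 and ISM1 encode 3 secreted proteins, and their transcripts were followed in the subcutaneous fat of 24 pigs at 115 kg body weight. They were found as the probes that the array files name MYOC, PI15 or ISM1, or whose transcript a RefSeq gene table gives one of these names. They are 3 of the 5238 genes that could be named. The search found 5 probes among 43603, which were 3 for MYOC and 1 each for PI15 and ISM1. All 5 were among the 28606 probes kept after the filter on dim signals, although the ISM1 probe passed it only through RFIpl.

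The pigs belonged to 3 groups of 8, with 1 one-colour array per pig. RFIneg pigs came from a line with low residual feed intake and ate freely. RFIplR pigs came from a line with high residual feed intake and were restricted to the feeding level of RFIneg. RFIpl pigs came from the same high line and ate freely. Residual feed intake measures how far an animal's consumption lies above or below the amount predicted from its growth and upkeep. RFIneg and RFIpl therefore differed in line, and in intake as far as the lines ate differently, while RFIplR and RFIpl differed in feeding level within 1 line. Breed, sex and age of the pigs are not given in the sources used here.

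Myocilin, the product of MYOC, is a secreted glycoprotein with an olfactomedin domain. It is best known from the trabecular meshwork of the eye, where human MYOC variants cause glaucoma, and in mice it has been linked to Wnt signalling and to muscle. Peptidase inhibitor 15 (PI15) belongs to the CAP superfamily of secreted cysteine-rich proteins and was isolated in human cells as a weak trypsin inhibitor. Isthmin 1 (ISM1) carries a thrombospondin type 1 repeat and an AMOP domain. In mice it has been described as an adipokine, a protein secreted by fat, that promotes glucose uptake through the PI3K and AKT kinases.

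The sequences of 2 probes are shown because they are what was measured. The MYOC probe A_72_P441639 ends in TGA, in capitals, which is a stop codon in 1 of its 3 frames. Another of its frames holds no stop codon, so the sequence alone does not settle which frame is read. The ISM1 probe is the only one for that gene, and 1 of its 3 frames holds no stop codon.
MYOC A_72_P441639: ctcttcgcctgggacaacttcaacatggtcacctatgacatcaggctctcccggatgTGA
ISM1 A_72_P449170: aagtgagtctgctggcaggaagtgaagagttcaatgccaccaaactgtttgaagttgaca
The files place the start of A_72_P441639 at base 1513 of the MYOC transcript and the starts of A_72_P583116 and A_72_P232842 further on, at bases 1887 and 2076. The PI15 probe, A_72_P473902, starts at base 1569 of its transcript, and the ISM1 probe at base 820. All 5 probes are 60 bases long. The files give none of them a genome position, and none was computed. The PI15 probe carries only a locus name in the files and was named through its accession.

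Levels are log2 of the processed intensity minus the 75th percentile of that array, so they compare arrays for 1 probe and not one probe with another. The arrays were of 2 brightness classes, 17 bright ones with a 75th percentile of 414 to 663 intensity units and 7 dim ones with 69.4 to 94.4. The dim arrays were 2 of RFIneg, 3 of RFIplR and 2 of RFIpl, and all were scanned on 1 of the 3 scan days. The share of probes well above background ranged over the arrays from 43.1% to 79.8%. Correlations over the kept probes were 0.936 to 0.991 between pairs of bright arrays and 0.769 to 0.825 between a bright and a dim one.
The arrays RFIpl 1 and RFIpl 2 stood apart in skeletal muscle markers. The mean level over the 10 measured of 15 markers was 0.97 and 5.71 there and between -1.97 and 0.24 on the other arrays. The arrays RFIpl 7 and RFIpl 8 stood apart in keratinocyte markers, with a mean over the 3 measured of 10 of 2.81 and 1.37, against -3.96 to -2.30 elsewhere. All 9 adipocyte markers were well above background on every array. Erythrocyte genes were not analysed here.

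The 3 genes were chosen by their differences from RFIpl on these same arrays. In the limma fit over all 24 arrays, 2 of the 3 MYOC probes passed an adjusted p of 0.05 in both comparisons against RFIpl, where 0.206% of kept probes passed in RFIneg minus RFIpl and 0.297% in RFIplR minus RFIpl. At A_72_P232842 the call was lost in 12 of 19 alternative fits in each comparison, among them those with a block for slide or replicate number and those within 1 brightness class or 1 scan day. Leaving out single arrays, it was lost in 10 of 24 fits in RFIneg minus RFIpl and in 8 of 24 in RFIplR minus RFIpl, and in both without RFIpl 1, 5, 7 or 8. PI15 and ISM1 did not pass in the fit over all arrays. With brightness class as a block, PI15 passed in both comparisons, where 6.62% and 10.4% of probes did, and ISM1 passed in RFIplR minus RFIpl. These values bear on the choice of the genes, so differences from RFIpl are given below as descriptions with standard errors and intervals and without p-values. Both comparisons use the same RFIpl arrays. RFIneg minus RFIplR was tested for each probe and shares arrays with both.

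MYOC, the myocilin gene, was higher in RFIneg and in RFIplR than in RFIpl. At the probe with the highest signal, A_72_P232842, RFIneg arrays ran from 6.32 to 7.62 with a median of 7.31, RFIplR arrays from 6.50 to 7.51 with a median of 6.97, and RFIpl arrays from 3.60 to 6.99 with a median of 4.94. All 8 RFIneg and all 8 RFIplR arrays lay above the mean of RFIpl. The groups overlapped through RFIpl 3 alone, at 6.99, since the next RFIpl array stood at 6.16, below every RFIneg and RFIplR array. Over the whole array 0.0245% of kept probes did not overlap in RFIneg against RFIpl and 0.154% in RFIplR against RFIpl. This probe is not among them, and the share of probes that overlap through a single array was not counted.
The level averaged 7.08 ± 0.50 in RFIneg, 6.96 ± 0.33 in RFIplR and 5.22 ± 1.06 in RFIpl (SD, n = 8 each). The log2 difference was 1.86 in RFIneg minus RFIpl (SE 0.34, 95% interval 1.15 to 2.57), which is 3.63-fold. In RFIplR minus RFIpl it was 1.74 (SE 0.34, interval 1.03 to 2.45), which is 3.34-fold. The spread was widest in RFIpl, where RFIpl 8 had the lowest level of the 24 arrays. Bulk tissue was measured, so fewer cells of a type and less RNA per cell cannot be told apart here or for the other genes.

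**Figure D1:**
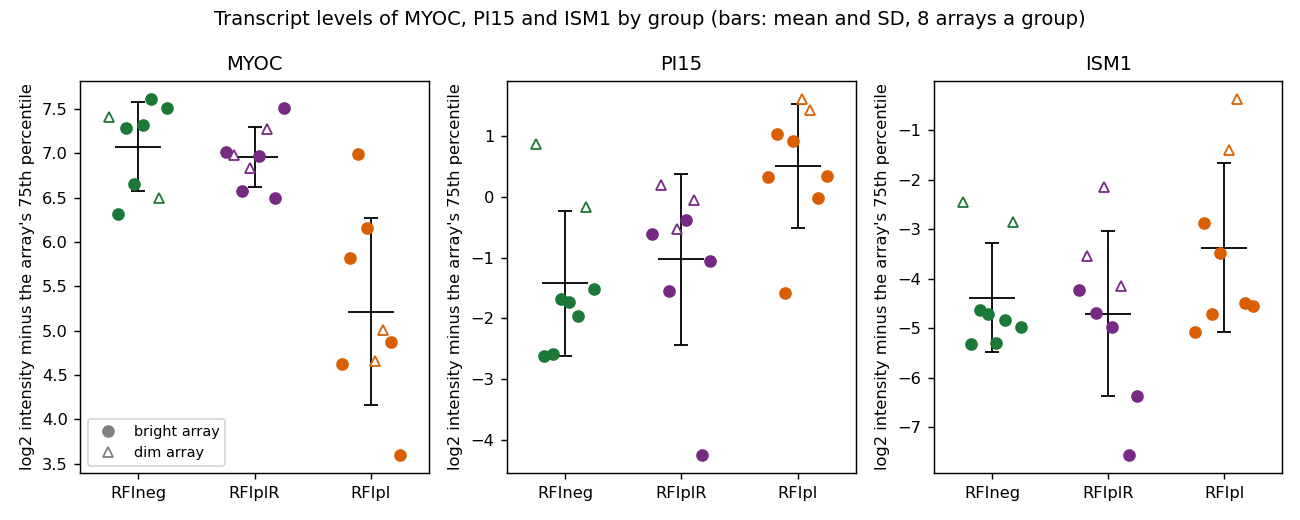
Levels of MYOC (A_72_P232842), PI15 and ISM1 on each array, as log2 intensity minus the array's 75th percentile, in RFIneg, RFIplR and RFIpl; filled circles are bright arrays, open triangles dim arrays, and black bars the mean and SD of 8 arrays. For MYOC the RFIneg and RFIplR means of 7.08 and 6.96 lie above the RFIpl mean of 5.22, and for PI15 and ISM1 the RFIpl mean is the highest of the 3.

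RFIneg and RFIplR did not differ detectably in MYOC. The log2 difference was 0.12 with an interval of -0.59 to 0.83, and the adjusted p of limma was 0.999. The order of the means was RFIneg, RFIplR and RFIpl, of which the first and second did not differ beyond their spread. In that comparison limma called 0 of 28606 probes, and 605 had an unadjusted p under 0.05.

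The other 2 MYOC probes moved with the first across the arrays. After group and brightness class were taken out, the pairs of MYOC probes correlated at 0.987 to 0.990 over the 24 arrays, a description over arrays that share RNA and depth. The probe that ends in TGA, A_72_P441639, had 4.63 ± 0.60 in RFIneg, 4.37 ± 0.38 in RFIplR and 2.55 ± 1.13 in RFIpl. Its difference was 2.07 in RFIneg minus RFIpl and 1.82 in RFIplR minus RFIpl (SE 0.38 each). Its RFIneg arrays lay between 3.65 and 5.29, its RFIplR arrays between 3.93 and 5.14, and RFIpl 3, at 4.46, was again the only RFIpl array above the lowest array of the other groups.
A_72_P583116 had 4.49 ± 1.30 in RFIneg, 3.97 ± 1.28 in RFIplR and 2.34 ± 1.78 in RFIpl. This probe alone of the 3 followed array brightness, with a dim minus bright difference of -2.60 (SE 0.34) once group was taken out, while the other 2 moved by -0.16 (SE 0.31) and -0.14 (SE 0.34). On the bright arrays it had 5.13 ± 0.57 in 6 RFIneg, 4.87 ± 0.40 in 5 RFIplR and 3.06 ± 1.39 in 6 RFIpl arrays. On the dim arrays it averaged 2.58 in 2 RFIneg, 2.47 in 3 RFIplR and 0.17 in 2 RFIpl arrays. The order was the same in both classes, and the 2 probes that had passed the threshold were those without the brightness shift. RFIneg minus RFIplR was 0.26 at A_72_P441639 and 0.52 at A_72_P583116, with an adjusted p of 0.999 at both.

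**Figure D2:**
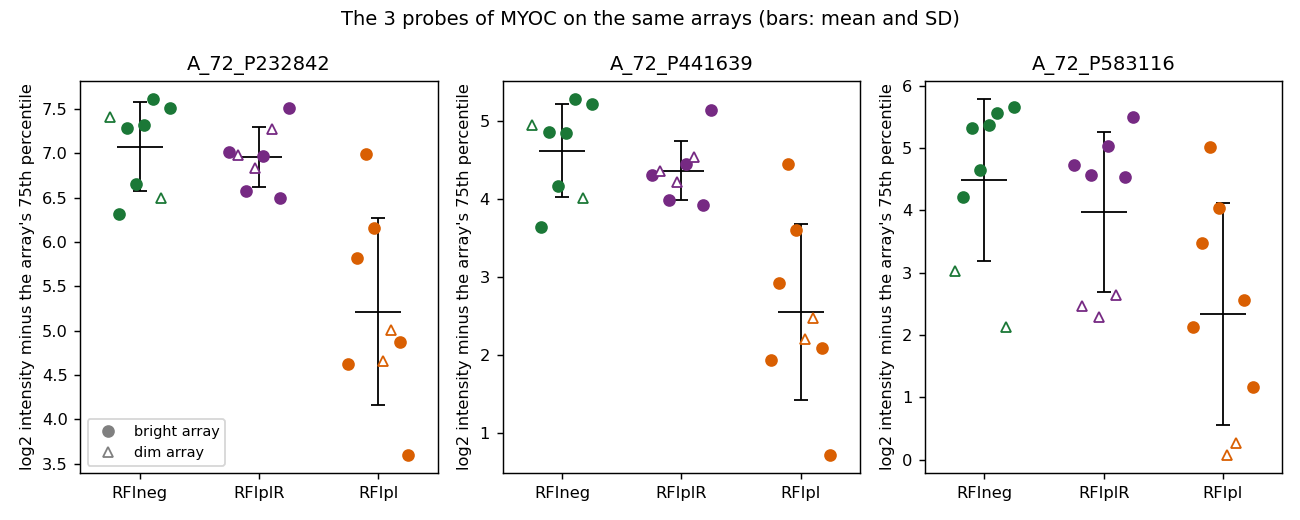
The 3 MYOC probes on the same 24 arrays, as log2 intensity minus the array's 75th percentile, by group; symbols and bars as for the levels of the 3 genes. The RFIpl mean is the lowest in each panel, and in the third (A_72_P583116) the dim arrays form a lower layer (dim minus bright -2.60).

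The MYOC difference was found in both brightness classes. Within the bright arrays it was 1.77 in RFIneg minus RFIpl (SE 0.43) and 1.57 in RFIplR minus RFIpl (SE 0.46), and within the dim arrays 2.12 (SE 0.34) and 2.20 (SE 0.31). On the dim arrays RFIneg stood at 7.41 and 6.50, RFIplR at 6.83, 6.98 and 7.27, and RFIpl at 4.65 and 5.01. These dim groups did not overlap with RFIpl, but with so few arrays neither did 42.7% of kept probes in RFIneg against RFIpl and 40.2% in RFIplR against RFIpl. Without RFIpl 1 and RFIpl 2, the arrays high in muscle markers, the MYOC differences were 1.86 and 1.74. Without RFIpl 7 and RFIpl 8, the arrays high in keratinocyte markers, they were 1.53 and 1.41.
Adipocyte markers are given beside MYOC. Their mean level over all 9 markers lay between 5.04 and 5.76 in RFIneg, between 4.90 and 5.58 in RFIplR and between 4.58 and 5.72 in RFIpl. None of the 9 was called over all 24 arrays. With brightness as a block 5 of 9 rose in RFIneg minus RFIpl, where 6.62% of kept probes were called, and 3 of 9 in RFIplR minus RFIpl, where 10.4% were, and none passed as lower. The genes that rose in RFIneg minus RFIpl were AQP7 at 0.79, CIDEC at 0.76, LIPE at 0.55, PLIN1 at 0.48 and ADIPOQ at 0.27. In RFIplR minus RFIpl they were AQP7 at 0.60, PLIN1 at 0.39 and ADIPOQ at 0.29. Over all arrays LEP stood at 1.36 and 1.17 and LPL at 0.45 and 0.24. PPARG, the adipocyte master regulator, stood at -0.07 and -0.23 and FABP4, a fatty acid carrier, at 0.13 and 0.06 over all arrays. None of LEP, LPL, PPARG and FABP4 passed in either fit. RFIpl 3, which had the highest MYOC level of its group, also had its highest adipocyte mean, 5.72. RFIpl 8 had the lowest MYOC level, 3.60, at an adipocyte mean of 5.27. The part of these markers in the MYOC difference was not tested.

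**Figure D3:**
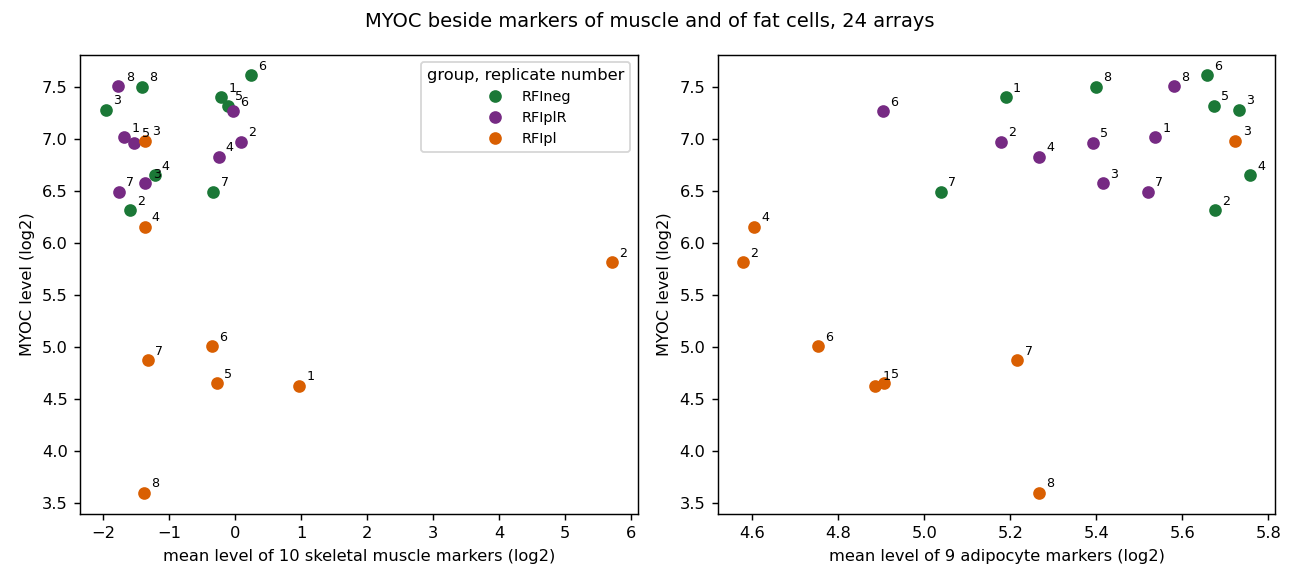
MYOC level (A_72_P232842) against the mean level of 10 skeletal muscle markers (left) and 9 adipocyte markers (right) on the 24 arrays, all as log2; colours are groups and numbers are replicates. RFIpl 2 stands alone at a muscle mean of 5.71 with MYOC at 5.82, and RFIpl 3 lies among the RFIneg and RFIplR arrays in the right panel.

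PI15, the CAP family inhibitor, ran the other way and was lower in RFIneg and RFIplR. RFIneg arrays ran from -2.62 to 0.86 with a median of -1.70, RFIplR arrays from -4.25 to 0.18 with a median of -0.57, and RFIpl arrays from -1.59 to 1.61 with a median of 0.63. The level averaged -1.43 ± 1.20 in RFIneg, -1.03 ± 1.41 in RFIplR and 0.51 ± 1.02 in RFIpl (SD, n = 8 each). The probe was well above background on every array. All 3 groups overlapped, with 1 RFIneg array and no RFIplR array above the mean of RFIpl.
The log2 difference was -1.93 in RFIneg minus RFIpl (SE 0.58, interval -3.14 to -0.72), which is 0.262 of the RFIpl level. In RFIplR minus RFIpl it was -1.54 (SE 0.58, interval -2.74 to -0.33), which is 0.345 of the RFIpl level. RFIneg minus RFIplR was -0.39 (SE 0.58, interval -1.60 to 0.81, adjusted p of limma 0.999), so that pair did not differ beyond its spread.

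Brightness moved PI15 too, in the direction opposite to the third MYOC probe. With group taken out the dim arrays stood 1.70 above the bright ones (SE 0.39), while the median probe moved by -0.04. On the bright arrays PI15 averaged -2.02 ± 0.48 in RFIneg, -1.57 ± 1.56 in RFIplR and 0.17 ± 0.94 in RFIpl. RFIpl 3, at -1.59, was the only bright RFIpl array below -0.02, and every bright RFIneg array lay at or below -1.52. On the dim arrays RFIneg stood at 0.86 and -0.16, RFIplR at 0.18, -0.53 and -0.05, and RFIpl at 1.61 and 1.43. The RFIpl mean was the highest in each class. Among the bright arrays the groups overlapped with RFIpl only through RFIpl 3, and the share of kept probes that do so was not counted. Among the dim arrays they did not overlap with RFIpl. There 42.7% of kept probes did not overlap in RFIneg against RFIpl and 40.2% in RFIplR against RFIpl.
The differences within the bright arrays were -2.18 (SE 0.55) in RFIneg minus RFIpl and -1.74 (SE 0.58) in RFIplR minus RFIpl. Within the dim arrays they were -1.17 (SE 0.39) and -1.65 (SE 0.35). Within the scan days that allowed the comparison, RFIneg minus RFIpl was -1.60 on the first and -0.63 on the second, the day that held all dim arrays. RFIplR minus RFIpl was -1.76 and -1.35 on these days. On the second day both RFIneg arrays were dim, as were 3 of 4 RFIplR and 2 of 4 RFIpl arrays. The value of -0.63 had an SE of 0.59. Dim arrays read higher at this probe, and the part of brightness in that value was not tested. Without RFIplR 7, whose level of -4.25 was far below the next RFIplR array at -1.55, RFIplR minus RFIpl was -1.08. That array also had the lowest mean of 8 measured fibroblast markers, 0.57. On the bright arrays the fibroblast means lay between 0.99 and 1.71 in RFIneg, between 0.57 and 2.01 in RFIplR and between 1.39 and 2.17 in RFIpl. None of the 8 markers was called in the fit over all arrays. With brightness as a block 2 of 8 fell in RFIneg minus RFIpl, where 6.62% of kept probes were called. They were COL1A2 at -0.72 and DPP4 at -1.19 (adjusted p of limma 0.0273 and 0.0418). In RFIplR minus RFIpl, where 10.4% were called, 1 of 8 fell, COL1A2 at -0.64 (adjusted p of limma 0.0379). No fibroblast marker passed as higher. The part of these markers in the PI15 difference was not tested.

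**Figure D4:**
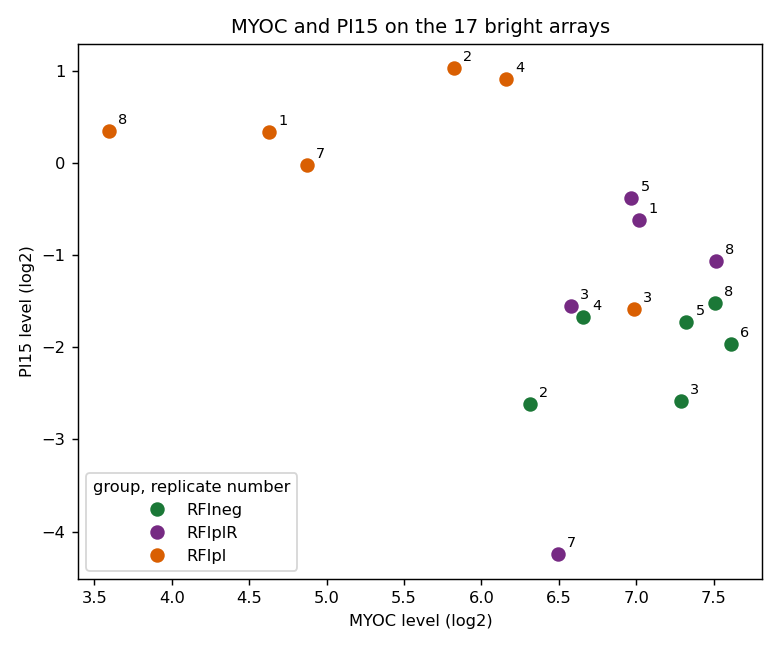
MYOC level (A_72_P232842) against PI15 level, both as log2 intensity minus the array's 75th percentile, on the 17 bright arrays; colours are groups and numbers are replicates. Of 6 RFIpl arrays 5 lie at the upper left, and RFIpl 3, at 6.99 and -1.59, lies with the RFIneg and RFIplR arrays.

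MYOC and PI15 did not track each other inside groups. With group and brightness class taken out their correlation over the 24 arrays was 0.03, that of MYOC with ISM1 0.13 and that of PI15 with ISM1 0.52, given as descriptions. RFIplR 7 had the lowest level of the 24 arrays for both PI15 and ISM1, at -4.25 and -7.57. ISM1 was not well above background there, and the correlation without that array was not computed. RFIpl 3 was the array at which MYOC and PI15 left the other bright RFIpl arrays at once, MYOC upward and PI15 downward. Leaving it out, the MYOC differences were 2.11 in RFIneg minus RFIpl and 1.99 in RFIplR minus RFIpl.

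ISM1, the isthmin gene, lay near background. Its probe was well above background on 5 RFIneg, 2 RFIplR and 6 RFIpl arrays of 8 each. RFIneg arrays ran from -5.33 to -2.46 with a median of -4.77, RFIplR arrays from -7.57 to -2.15 with a median of -4.46, and RFIpl arrays from -5.07 to -0.37 with a median of -4.00. The groups overlapped widely. The highest 2 levels of all were those of the dim arrays RFIpl 5 and RFIpl 6, and the lowest 2 were RFIplR 7 and RFIplR 8, neither of which was well above background.
The level averaged -4.39 ± 1.10 in RFIneg, -4.71 ± 1.67 in RFIplR and -3.37 ± 1.71 in RFIpl (SD, n = 8 each). The log2 difference was -1.01 in RFIneg minus RFIpl (SE 0.72, interval -2.51 to 0.48) and -1.33 in RFIplR minus RFIpl (SE 0.72, interval -2.83 to 0.16). Both intervals include 0, and with so many arrays near background these values are descriptions only. The fit with brightness as a block called ISM1 in RFIplR minus RFIpl, where it called 10.4% of kept probes. RFIneg minus RFIplR was 0.32 (SE 0.72, adjusted p of limma 0.999).
Dim arrays read 2.61 higher than bright ones at this probe (SE 0.37). Within the bright arrays ISM1 averaged -4.97 ± 0.30 in RFIneg, -5.57 ± 1.37 in RFIplR and -4.20 ± 0.83 in RFIpl. The differences there were -0.76 (SE 0.48) in RFIneg minus RFIpl and -1.36 (SE 0.50) in RFIplR minus RFIpl. On the dim arrays the probe was well above background on 1 of 2 RFIneg, 0 of 3 RFIplR and 2 of 2 RFIpl arrays. Differences within that class therefore rest partly on signals near background and are not interpreted. With normexp background correction RFIplR minus RFIpl turned to 0.44, while the median of all probes stood at 0.20 in that fit. RFIneg minus RFIpl stayed negative there, at -0.31.

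**Figure D5:**
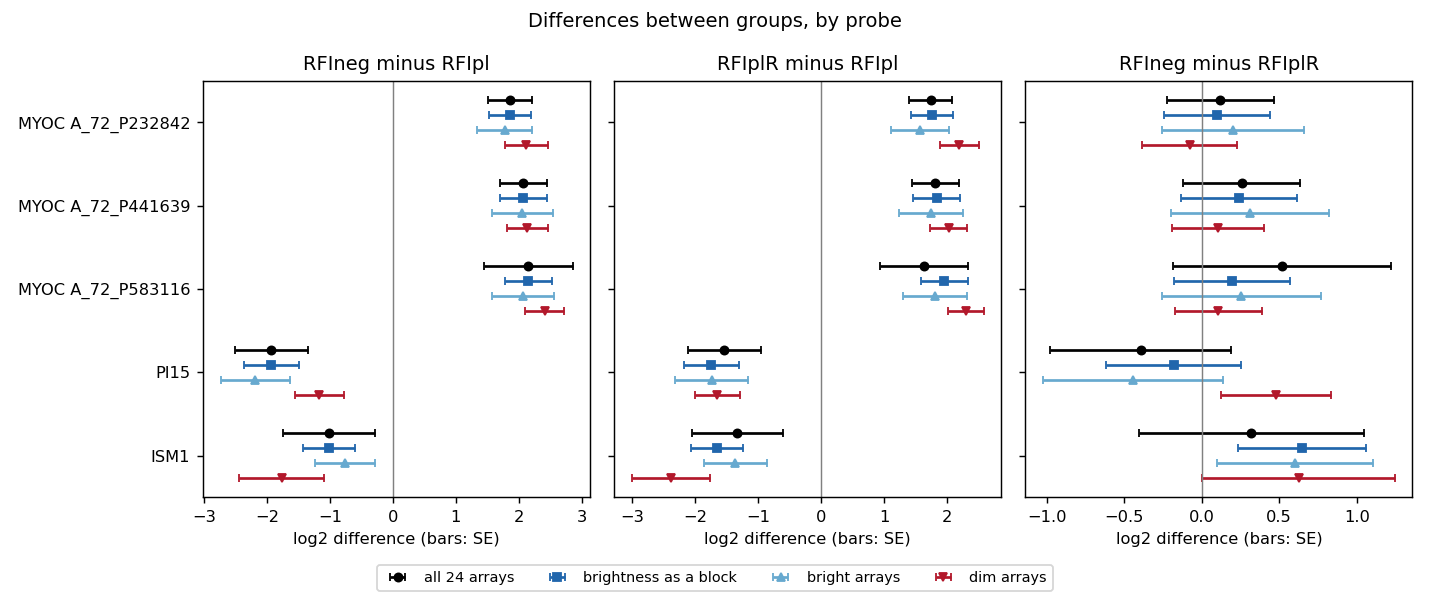
Log2 differences (points) with their standard errors (bars) for the 5 probes in the 3 comparisons, from all 24 arrays, with brightness as a block, and within the bright and the dim arrays. MYOC lies right of 0 and PI15 and ISM1 left of 0 in both comparisons against RFIpl, and in RFIneg minus RFIplR the differences lie around 0. ISM1 was well above background on none of the dim RFIplR arrays.

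Genes related to the 3 proteins by family or function were read from 8 lists. None of their measured genes was called in any of the 3 comparisons over all 24 arrays, by limma after adjustment over all kept probes. All list medians lay between -0.20 and 0.32 in log2 difference, against -0.01, -0.01 and 0.01 over all probes. Counts with brightness class as a block are given with them, since that fit called far more probes.

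Olfactomedin family genes, relatives of MYOC, were measured for 3 of 12. OLFML3, a secreted matrix protein, differed by 0.70 in RFIneg minus RFIpl (SE 0.41, adjusted p of limma 0.911). Of 10 genes for matrix and scaffold proteins reported to bind myocilin, 8 were measured, and LAMB1, a laminin chain, stood at -0.41 in RFIneg minus RFIpl (adjusted p of limma 0.63). None passed with the block either. Of 27 Wnt pathway genes 9 were measured. SFRP5, a secreted Wnt antagonist made by fat cells, averaged 3.19 in RFIneg and 1.56 in RFIpl, a difference of 1.63 (SE 0.66, adjusted p of limma 0.549 over all arrays). It was the only Wnt gene past the threshold with the block, where it rose by 1.63 in RFIneg minus RFIpl (adjusted p of limma 0.00524) and by 1.30 in RFIplR minus RFIpl (adjusted p of limma 0.0131). It was 1 of the 9 measured, in a fit that called 6.62% and 10.4% of kept probes in these comparisons.

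CAP superfamily genes, relatives of PI15, were measured for 4 of 11, and none passed in either fit. CRISPLD1, a secreted CAP protein, stood at -0.47 in RFIplR minus RFIpl (SE 0.53, adjusted p of limma 0.999). Of 25 other protease inhibitor genes 14 were measured. TFPI, the tissue factor pathway inhibitor, stood at -1.02 in RFIplR minus RFIpl (SE 0.24, adjusted p of limma 0.057). With the block TFPI fell by 1.06 (adjusted p of limma 0.00379), SERPINC1, the antithrombin gene, fell by 0.42 (adjusted p of limma 0.0257) and TIMP2, a metalloproteinase inhibitor, rose by 0.48 (adjusted p of limma 0.0241). The block fit called 10.4% of kept probes in RFIplR minus RFIpl and 6.62% in RFIneg minus RFIpl. No inhibitor gene passed in RFIneg minus RFIpl in either fit.

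Thrombospondin type 1 repeat genes, which share that repeat with ISM1, were measured for 7 listed symbols, and none passed in either fit. NOV, a matricellular protein, stood at 1.07 in RFIplR minus RFIpl (SE 0.51, adjusted p of limma 0.596), and ADAMTS4, a matrix protease, at -0.90 (adjusted p of limma 0.457). Of 14 genes for isthmin receptors and signalling 6 were measured. AKT1, the kinase named in the mouse work on isthmin, stood at -0.74 in RFIplR minus RFIpl (SE 0.20, adjusted p of limma 0.11). With the block AKT1 fell by 0.80 in RFIplR minus RFIpl (adjusted p of limma 0.00225) and by 0.62 in RFIneg minus RFIpl (adjusted p of limma 0.0168). It was the only 1 of these 6 genes to pass, in a fit that called 10.4% and 6.62% of kept probes there. SLC2A4, the insulin-dependent glucose transporter, stood at 0.51 in RFIneg minus RFIplR (adjusted p of limma 0.999).
Among 31 adipokine genes 22 were measured. LEP, the satiety hormone leptin, differed by 1.36 (SE 0.56, adjusted p of limma 0.567) and LCN2, a lipocalin, by 1.33 (SE 0.52, adjusted p of limma 0.508) in RFIneg minus RFIpl. With the block 3 of the 22 adipokine genes rose in each comparison against RFIpl, in a fit that called 6.62% of kept probes in RFIneg minus RFIpl and 10.4% in RFIplR minus RFIpl, and they were SFRP5, ADIPOQ and AGT in both. ADIPOQ, the adiponectin gene, rose by 0.27 in RFIneg minus RFIpl and by 0.29 in RFIplR minus RFIpl in that fit (adjusted p of limma 0.0385 and 0.0207). AGT, the angiotensinogen gene, rose by 0.83 and 0.67 (adjusted p of limma 0.017 and 0.0351).

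The genes whose levels were most like each member were taken from 4207 genes over the 24 arrays, with group and brightness class taken out. For MYOC they were FHL1, a LIM-domain protein, at a correlation of 0.863, EDNRA, an endothelin receptor, at 0.806, SLCO3A1, an organic anion transporter, at 0.787, PIK3IP1, a PI3K inhibitor, at 0.738 and MATN2, a matrix protein, at 0.736. For PI15 they were the matrix genes COL14A1 at 0.863, DCN at 0.820 and CTHRC1 at 0.815, the receptor tyrosine kinase AXL at 0.801 and the metalloproteinase inhibitor TIMP1 at 0.784. For ISM1 they were its fellow secreted-protein gene CRISPLD1 at 0.804, PROX1, a transcription factor of lymphatic endothelium, at 0.800, the lymphatic chemokine CCL21 at 0.751, COL1A2 at 0.723 and AEBP1 at 0.710. The arrays share labelling and brightness, so these correlations are descriptions without a test. Those of ISM1 also rest on a probe that was near background on many arrays. RFIplR 7, the lowest array for PI15 at -4.25, also had the lowest mean of fibroblast markers, 0.57. The PI15 correlations without that array were not computed. By this measure the 3 sets of 5 had no gene in common. On the 17 bright arrays, with group taken out, CCL21 was among the nearest 5 of both PI15, at 0.864, and ISM1, at 0.919. With brightness class taken out and group left in, the 5 nearest to PI15 were SRPX, CSRP2, SH3GL3, MFAP2 and PTN.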

How the data were processed

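Feature Extraction 10.7.3.1 gave the intensity of each spot, with background subtracted and a spatial trend removed but no scaling between arrays, per the file headers. The authors also deposited log2 values for 24675 probes, which were the same intensities centred on the median of each array (SD of the difference at most 4.5e-10), and 4 of the 5 probes are among them. The submitters' processing notes name R 2.10.0.

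Levels were log2 intensity minus each array's 75th percentile. Control spots were left out. A probe was kept when well above background on at least 6 of 8 arrays of a group and missing on at most 6 arrays. Saturated spots and duplicated arrays were absent. RefSeq genes (Sscrofa11.1, for names alone) gave symbols to 7187 probes by accession and to 1365 by gene identifier, and the files to 3410. Another 29 probes had several symbols and 31612 had none.

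The comparisons came from limma 3.58.1 (R 4.3.3, with version 1.17.8 of data.table) over all 24 arrays, with Benjamini-Hochberg adjustment over 28606 probes and a threshold of 0.05, tested on simulated data. Replicates are separate pigs, whose number limits the precision. The members and lists were chosen with earlier results of these data known. Named were all member probes, up to 4 genes per list with the smallest p, genes called, and the 5 most correlated genes per member. The kept probe with the highest mean signal stood for a gene. Alternatives were another background correction, scaling, filter, block or weight, the deposited table, single brightness classes and scan days, and arrays left out. Leaving out RFIpl 7 and RFIpl 8 was added after seeing the data. Python 3.11.15, pandas 2.3.3 and matplotlib 3.10.9 drew the figures.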

Additional observations from a re-analysis of the deposited data

Results flagged for a closer look

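Of 15 groups of 8 arrays (5 probes in 3 groups), 1 held an array far from the others. PI15 on RFIplR 7 stood at -4.25 and the next lowest RFIplR array at -1.55, a gap of 0.608 of the group's range against a critical value of 0.526. Chance alone gives such a gap in about 1 of 20 groups. The PI15 difference in RFIplR minus RFIpl was -1.54 with that array and -1.08 without it. The reason for the low level was not tested.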

How the results depend on the processing

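Over 19 alternatives other than leaving out single arrays, MYOC and PI15 kept their sign in both comparisons against RFIpl. At A_72_P232842 MYOC ranged from 1.53 to 2.12 in RFIneg minus RFIpl and from 1.41 to 2.20 in RFIplR minus RFIpl. At A_72_P441639 it ranged from 1.69 to 2.31 and from 1.43 to 2.07. The range was wider at A_72_P583116 in RFIneg minus RFIpl, from 0.84 to 2.41, the lowest being within scan day 2 (SE 1.18). In RFIplR minus RFIpl that probe ranged from 1.23 to 2.30. PI15 ranged from -2.23 to -0.63 in RFIneg minus RFIpl and from -1.85 to -1.12 in RFIplR minus RFIpl. The value of -0.63 was that within scan day 2. On that day both RFIneg arrays were dim, against 2 of 4 RFIpl arrays, and the part of brightness in that value was not tested. ISM1, which 17 alternatives could measure, ranged from -1.77 to -0.21 in RFIneg minus RFIpl and from -2.39 to 0.44 in RFIplR minus RFIpl, where 0.44 came from normexp and -2.39 from the dim arrays, on none of which the RFIplR signal was well above background. Leaving out single arrays, MYOC at A_72_P232842 lay between 1.63 and 2.11 and between 1.51 and 1.99 in these 2 comparisons. PI15 lay between -2.26 and -1.76 and between -1.84 and -1.08. ISM1 lay between -1.29 and -0.59 and between -1.70 and -0.91.

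The MYOC call was lost with the replicate block, normexp, median scaling, no filter, slide as a block, either brightness class, either scan day, only the groups compared, without RFIpl 1 and RFIpl 2 and without RFIpl 7 and RFIpl 8, in both comparisons against RFIpl. Counts of called probes moved far more than the members' differences. In RFIneg minus RFIpl the 59 calls became 0 with the replicate block, normexp, slide as a block, the dim arrays, either scan day, only the groups compared, without RFIpl 1 and RFIpl 2 or without RFIpl 7 and RFIpl 8. They became 3 with median scaling, 2 with no filter, 39 in the deposited table, 297 within the bright arrays, 1895 with brightness class as a block and 3063 with array weights. Without 1 array they lay between 1 (without RFIpl 8) and 284 (without RFIpl 3). In RFIplR minus RFIpl the 85 calls became 0 within the dim arrays, on scan day 2 and without RFIpl 7 and RFIpl 8, 1 without RFIpl 1 and RFIpl 2, 2 with the replicate block, 4 with normexp, 20 with median scaling, 25 with slide as a block, 26 with only the groups compared, 33 on scan day 1, 38 with no filter, 131 among probes well above background on every array, 258 with scan day as a block, 954 within the bright arrays, 2963 with brightness class as a block and 2943 with array weights. Without 1 array they lay between 22 (without RFIpl 1) and 296 (without RFIpl 3). RFIneg minus RFIplR had 4 calls with array weights and 0 in all other fits, single arrays left out included. The cause of these moves was not tested.

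Whether the replicate numbers pair the pigs could not be decided from the arrays. Correlations of same-numbered arrays, with group means but not brightness class taken out, spanned wide ranges. They ran from -0.744 to 0.553, from -0.797 to 0.643 and from -0.819 to 0.879 in the 3 comparisons, with 4, 3 and 5 of 8 over 0.1. Every pair over 0.1 was of the same brightness class, and every negative pair joined a bright and a dim array. With the replicate block the MYOC differences stayed at 1.86 and 1.74, with standard errors of 0.38.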
